A study of Mus musculus with 8 samples.

Results

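Antibody in tears is made by plasma cells that lie between the acini of the lacrimal gland (LG) and is carried into the fluid by the gland's epithelium. A set of 9 mouse genes that covers this route, chosen by symbol, was followed in the LGs of mice fed ad libitum (AL) and of mice on calorie restriction (CR), and all 9 were found among the 24552 genes of the count table. Cd79a, Cd79b, Ms4a1, Cd22 and Cd37 belong to B cells. Jchain, Mzb1 and Pou2af1 serve the cells that secrete antibody, and Pigr serves the epithelium.

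The B cell receptor consists of a membrane immunoglobulin and the signalling chains CD79A and CD79B. MS4A1 is the surface protein CD20, CD22 is a sialic acid-binding receptor that dampens receptor signalling, and CD37 is a tetraspanin of lymphocytes. When B cells become plasma cells, they lose much of this surface equipment and turn to secretion. POU2AF1 (OCA-B) is a coactivator that works with octamer-binding proteins on immunoglobulin genes, MZB1 is an endoplasmic reticulum protein that helps immunoglobulin to assemble, and the J chain joins IgA and IgM into polymers. PIGR, the polymeric immunoglobulin receptor, takes up these polymers at the base of epithelial cells, crosses the cell with them and is cut at the apical surface, which leaves a part of it, the secretory component, on the antibody.

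The RNA came from exorbital LGs of female C57BL/6J mice aged 10/11 months, and 4 libraries per diet were sequenced near the 3' ends of transcripts. CR mice received 40% less food for 4 months from 6 to 7 months of age, and AL mice were the unrestricted controls. According to the study's methods the restriction was introduced in steps, CR mice were fed daily in the late afternoon, and cohorts with different chow were used. The sources used here do not give the cohort of each library, so cohort could not enter the tests. AL1 to AL4 and CR1 to CR4 denote the replicates of each diet. The labels do not state that each library came from a separate mouse, although the study counts 4 mice per diet, and the p-values measure the spread between these libraries.

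Each library held between 12051881 and 22156511 counts on genes. Levels are given in CPM, a count's share of its library on a common scale, with library sizes adjusted by relative log expression (RLE), and 3 counts, taken as the floor, equal 0.152 to 0.231 CPM. Floors and counting intervals cover counting error only, since the reads carry no molecular identifiers and are not independent molecules. Of 7 lacrimal gland genes, all present in both diets, 1 was called higher in CR (Sox10) and 0 lower by edgeR, 4 were above 0 and 3 below, while DESeq2 called 1 higher and 1 lower and edgeR without CR4 called 1 and 2. Those below 0 were Obp1a, an odorant-binding protein gene, with 147667 to 162883 CPM in AL and 90031, 66902, 58969 and 152838 CPM in CR1 to CR4, Ltf, the lactoferrin gene (201 ± 61.5 CPM in AL and 90.1 ± 41.7 in CR; SD, n = 4), and Pax6 (67.7 ± 16.8 and 42.3 ± 22.8). CR1 to CR3 were below all AL libraries for Obp1a, and CR4 was within the AL range. Sox10 was at 11.9 to 17.9 CPM in AL and at 85.8, 68.4, 88.0 and 26.3 CPM in CR1 to CR4. Of all genes, edgeR called 1.23% higher and 0.737% lower, and DESeq2 called 409 of 13090 higher and 2.45% lower. Without CR4, edgeR called 456 of 14343 higher and 1.76% lower. How particular the 7 listed genes are to the LG was not tested. The libraries also differed in 5 transcripts abundant in the parotid gland, a salivary gland next to the exorbital LG. Their summed level was 236 to 23454 CPM in AL and 17825 to 229653 CPM in CR, and their mean log2 level did not overlap between the diets (2.37 to 7.43 against 9.72 to 13.6). CR4 had the lowest parotid sum of the CR libraries, below that of AL1, although its mean log2 level of these transcripts was above that of AL1 (9.72 against 7.43), and it also stood apart from CR1 to CR3 over all genes (chi-square per degree of freedom of 612 to 750, against 52.6 to 85.7 among CR1 to CR3). Parotid transcripts and diet therefore cannot be told apart over all 8 libraries.

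The members lie at separate places in the genome, 3 of them on chromosome 7. In GENCODE vM21 on GRCm38, Cd79a (Gene ID 12518) occupies chr7:24897381-24902197 on the plus strand, Cd22 (Gene ID 12483) chr7:30865402-30880342 on the minus strand and Cd37 (Gene ID 12493) chr7:45233632-45239115 on the minus strand. Cd79b (Gene ID 15985) is at chr11:106311341-106314762 and Ms4a1 (Gene ID 12482) at chr19:11249675-11266241, both on the minus strand. Jchain (Gene ID 16069) is at chr5:88519809-88527891 on the minus strand, Pou2af1 (Gene ID 18985) at chr9:51213708-51240080 on the plus strand and Pigr (Gene ID 18703) at chr1:130826684-130852249 on the plus strand. In the last 600 bases, where these libraries collect reads, Cd37 overlaps Tead2 on the other strand and Mzb1 (Gene ID 69816) overlaps 1 gene on its own strand. An antisense gene, Gm29439, overlaps exons of Cd22 outside that window. The strand setting of the counting is not given in the sources used here, so counts of Cd37 are uncertain in this respect. Counts of Mzb1 are uncertain under any strand setting, since its overlap is on its own strand. No gene for an immunoglobulin heavy or light chain was analysed here, and the members stand without the antibody transcripts themselves.

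Promoters of the receptor and of the chain that joins its cargo are shown because Pigr and Jchain stand at the ends of the secretory route. Each line gives the 250 bases before the RefSeq start of the gene in GRCm38.p6, read 5' to 3' on the gene's strand, from chr1:130826434-130826683 (plus strand) for Pigr and chr5:88527898-88528147 (minus strand) for Jchain. Capitals mark a CACGTG match, the E-box bound by several basic helix-loop-helix factors.
Pigr: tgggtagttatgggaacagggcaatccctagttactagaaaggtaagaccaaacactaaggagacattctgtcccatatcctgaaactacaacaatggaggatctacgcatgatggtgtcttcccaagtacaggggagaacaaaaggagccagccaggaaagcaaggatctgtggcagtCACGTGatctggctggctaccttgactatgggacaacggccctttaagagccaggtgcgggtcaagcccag
Jchain: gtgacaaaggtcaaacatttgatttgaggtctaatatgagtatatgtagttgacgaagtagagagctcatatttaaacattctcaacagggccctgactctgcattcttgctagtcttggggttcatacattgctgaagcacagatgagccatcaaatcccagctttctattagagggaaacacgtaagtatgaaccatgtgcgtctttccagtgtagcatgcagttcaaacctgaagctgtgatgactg
The match in Pigr lay 71 to 66 bases before the start. Of 32851 promoters of this length, 6.02% hold CACGTG, which reads the same on both strands, and 2 of the 6 members matched in the promoter table used did (Pigr and Cd37). The octamer ATGCAAAT, searched on both strands, was found in 1.6% of promoters and in 0 of these 6 members. The palindromic motif of early B cell factors was found in 0.779% of promoters and in 1 member, Cd22. The core of interferon-response elements was found on either strand in 2.98% of promoters and in 0 members. A match is a run of letters and not a measured binding site.

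Over the whole route, 2 of the 8 members that could be tested were lower in CR, the B cell gene Ms4a1 and the transport gene Pigr. A gene was called with edgeR's quasi-likelihood test if its adjusted p was under 0.05 and its fold change reached 1.5 in size, which called 0.737% of 14510 genes lower in CR and 1.23% higher. Ms4a1 passes this test's requirement of 10 counts in all but not edgeR's stricter filterByExpr, which would leave it untested with Cd79a, Cd79b and Cd37. The same 2 members were those in which every CR library lay below every AL library, as did 4.73% of genes tested. All 8 had a log2 fold change below 0, as did 49.3% of genes tested, 7 had an unadjusted p under 0.05 with a lower level in CR, against 7.46% of genes tested, and 0 with a higher level, against 8.41%. The median log2 fold change of the 8 was -2.32, against 0.01 over all genes tested. Cd79a was counted too rarely to be tested, and the requirement of 10 counts over all libraries can be met by a gene counted mainly in AL, so these counts describe the tested members only. Without CR4, 3 members were called (Ms4a1, Cd22 and Pigr), when 1.76% of genes were lower. DESeq2, another count model, called 6 members lower (all tested except Mzb1 and Pou2af1) and 2.45% of the genes with an adjusted p.

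**Figure D1:**
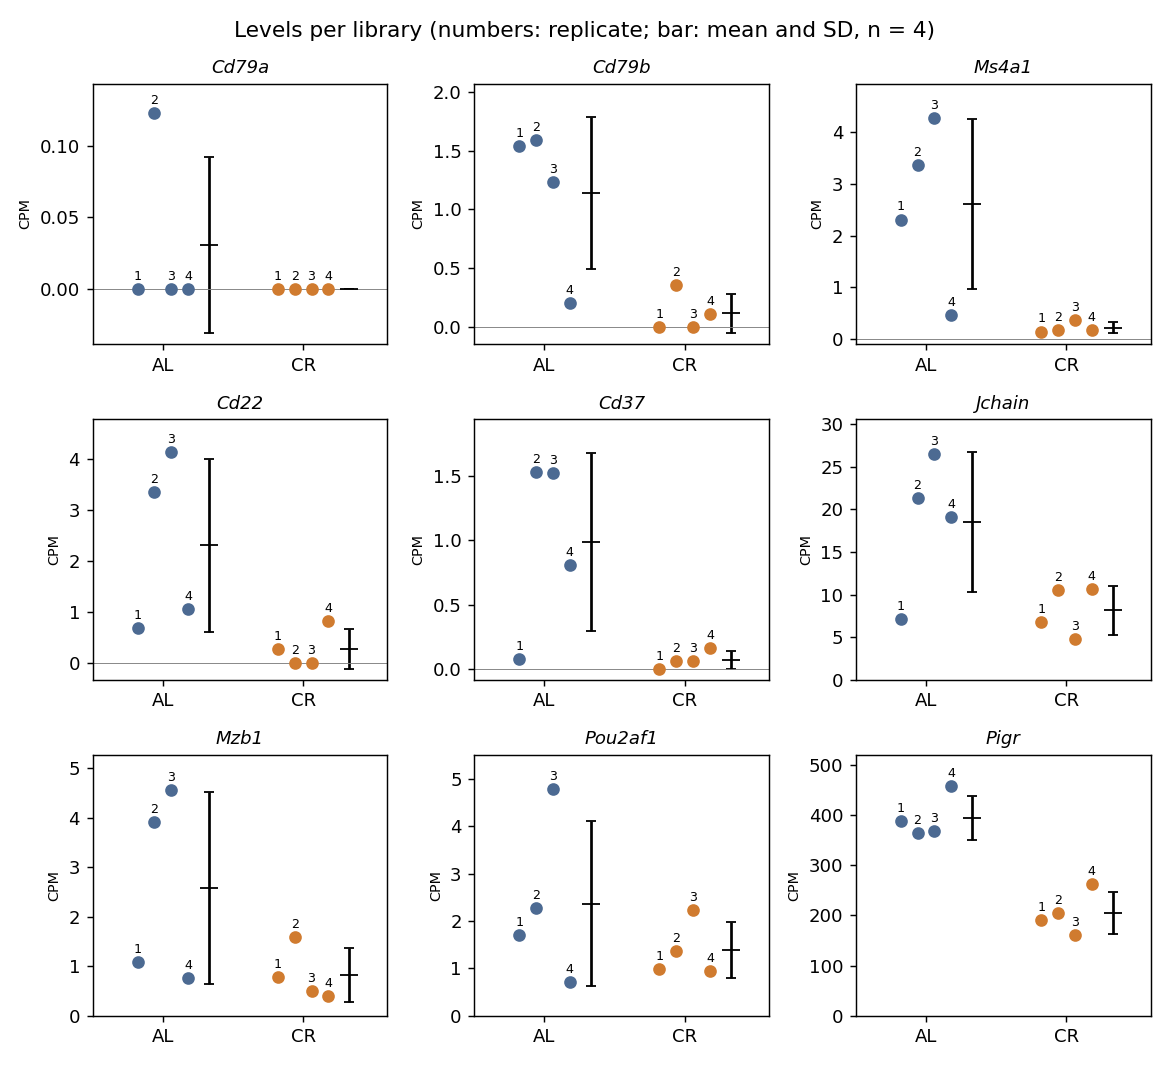
Level of each member (CPM, separate linear scale per gene) in the 4 AL and 4 CR libraries, with points numbered by replicate and a bar for mean and SD (n = 4). For Ms4a1 and Pigr all CR points sit below all AL points, whereas AL4 is the lowest AL library for Ms4a1 and Cd79b and AL1 is the lowest for Jchain, Cd22 and Cd37.

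Ms4a1 showed the clearest separation among the B cell members. Its level was 2.31, 3.37, 4.28 and 0.456 CPM in AL1 to AL4 and 0.142, 0.178, 0.371 and 0.167 CPM in CR1 to CR4. Every CR library was below every AL library, but AL4 and CR3 were close. The counts were 153 in AL and 14 in CR together, a ratio of 11.3 after scaling (95% Clopper-Pearson interval 6.55 to 21.2). The log2 fold change of CR against AL was -3.55 ± 0.70 (SE), with an adjusted p of 0.0220 by edgeR's quasi-likelihood F test, Benjamini-Hochberg adjusted. The exact permutation test of the 4 against 4 log2 levels, two-sided, gave p = 0.0286, the smallest it allows. The call was kept without AL4 and without CR4 and lost in each of the 6 fits without another library, with adjusted p between 0.0513 and 0.0999 by the same edgeR test and log2 fold changes between -3.93 and -3.21.

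Both signalling chains of the receptor were rare, and they were not equally counted. Cd79a had 2 counts in all, both in AL2 (0.122 CPM), and was at 0 in the other 7 libraries, which at the floor allows up to 0.152 to 0.231 CPM. Cd79b was measured at 1.54, 1.59, 1.23 and 0.203 CPM in AL1 to AL4 and at 0, 0.355, 0 and 0.111 CPM in CR1 to CR4. The diets overlapped for Cd79b, because AL4 lay below CR2. With 67 counts in AL and 8 in CR the scaled ratio was 8.69 (95% Clopper-Pearson interval 4.16 to 20.9), and the log2 fold change of -3.17 ± 1.06 did not pass the test (adjusted p = 0.153 by edgeR's quasi-likelihood F test, Benjamini-Hochberg adjusted). Without CR2, the CR library with the most Cd79b counts, it was -4.57, also not called.

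Cd22 and Cd37 had the same direction as Ms4a1 and Cd79b, with overlap. Cd22, the inhibitory receptor, had 0.693, 3.37, 4.14 and 1.06 CPM in AL1 to AL4 and 0.283, 0, 0 and 0.833 CPM in CR1 to CR4. CR4 was above AL1, while CR2 and CR3 had no count. The log2 fold change was -2.99 ± 0.95 (adjusted p = 0.135 by edgeR with Benjamini-Hochberg adjustment), and without CR4 it was -4.60 with an adjusted p of 0.0195 in the same edgeR test, the only library whose omission gave a call. Its adjusted p ranged from 0.0195 to 0.894 over all alternatives in edgeR and DESeq2. The tetraspanin gene Cd37 had 0.0770, 1.53, 1.52 and 0.810 CPM in AL1 to AL4 and 0, 0.0592, 0.0619 and 0.167 CPM in CR1 to CR4. AL1 held a single count of Cd37 and lay below CR4. Its log2 fold change was -3.60 ± 1.07 (adjusted p = 0.108 by edgeR with Benjamini-Hochberg adjustment), and without CR4 it was -4.32, also not called. Summed over the 5 B cell members, the level was 7.08 ± 4.16 CPM in AL and 0.682 ± 0.405 CPM in CR (SD, n = 4). In bulk tissue, fewer cells of a type and less RNA per cell cannot be told apart.

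Jchain was the most counted member of the antibody-secreting group. It reached 7.16, 21.3, 26.4 and 19.1 CPM in AL1 to AL4 and 6.72, 10.5, 4.82 and 10.7 CPM in CR1 to CR4. AL2, AL3 and AL4 were above all CR libraries, and AL1 lay among them. The counts gave a scaled ratio of 2.26 of AL over CR (95% Clopper-Pearson interval 2.04 to 2.51). The log2 fold change was -1.18 ± 0.35 with an adjusted p of 0.112 by edgeR's quasi-likelihood F test, Benjamini-Hochberg adjusted. Without AL1 it was -1.44 and the adjusted p 0.0382 in the same edgeR test, whereas the other omissions gave no call. Over all alternatives in edgeR and DESeq2 the adjusted p of Jchain ranged from 0.0118 to 0.806.

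Mzb1 and Pou2af1, both also expressed by B cells, were not called under any alternative. Mzb1 was measured at 1.08, 3.92, 4.57 and 0.760 CPM in AL1 to AL4 and at 0.779, 1.599, 0.495 and 0.389 CPM in CR1 to CR4. AL2 and AL3 were above all CR libraries, and AL1 and AL4 lay within their range. The log2 fold change of Mzb1 was -1.65 ± 0.65 (adjusted p = 0.219 by edgeR with Benjamini-Hochberg adjustment). The coactivator gene Pou2af1 had 1.69, 2.27, 4.79 and 0.709 CPM in AL1 to AL4 and 0.991, 1.36, 2.23 and 0.944 CPM in CR1 to CR4. AL3 was the highest library and AL4 the lowest of all 8, so that the diets overlapped widely. Its log2 fold change was -0.76 ± 0.55 (adjusted p = 0.561 by edgeR with Benjamini-Hochberg adjustment) and moved to -0.17 without AL3. The 3 genes together summed to 23.4 ± 10.9 CPM in AL and 10.4 ± 2.80 CPM in CR (SD, n = 4).

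Pigr, the only member of the transport step, was the most counted of the 9 and the least variable. It was measured at 389, 364, 368 and 458 CPM in AL1 to AL4 and at 191, 205, 161 and 263 CPM in CR1 to CR4. The lowest AL library was above the highest CR library, and the coefficient of variation was 11.0% in AL and 20.8% in CR. Of the 7 genes of the lacrimal list, Obp1a, Ltf and Pax6 were also below 0 between the diets and 4 were above 0, with a median log2 fold change of 0.22. The parotid transcripts were above 0. The part of lacrimal and parotid content in the level of Pigr was not tested. The log2 fold change of Pigr was -0.95 ± 0.21, with an adjusted p of 0.0372 by edgeR's quasi-likelihood F test, Benjamini-Hochberg adjusted, and 25108 and 13497 counts gave a scaled ratio of 1.93 (95% Clopper-Pearson interval 1.89 to 1.97). The exact permutation p was 0.0286, again the smallest possible. The call was kept without CR4 and lost without any of the other 7 libraries, with adjusted p between 0.0745 and 0.126 in the same edgeR test and log2 fold changes between -0.98 and -0.84.

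When the mean log2 level of the parotid transcripts entered the fit as a covariate, neither called member kept its call. Ms4a1 then had a log2 fold change of -5.13 (adjusted p = 0.433) and Pigr of -0.63 (adjusted p = 0.709) by edgeR's quasi-likelihood F test, in a fit that called 3 genes higher and 0 lower in all. Over all alternatives in edgeR and DESeq2 the adjusted p ranged from 0.000182 to 0.433 for Ms4a1 and from 0.000116 to 0.709 for Pigr.

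**Figure D2:**
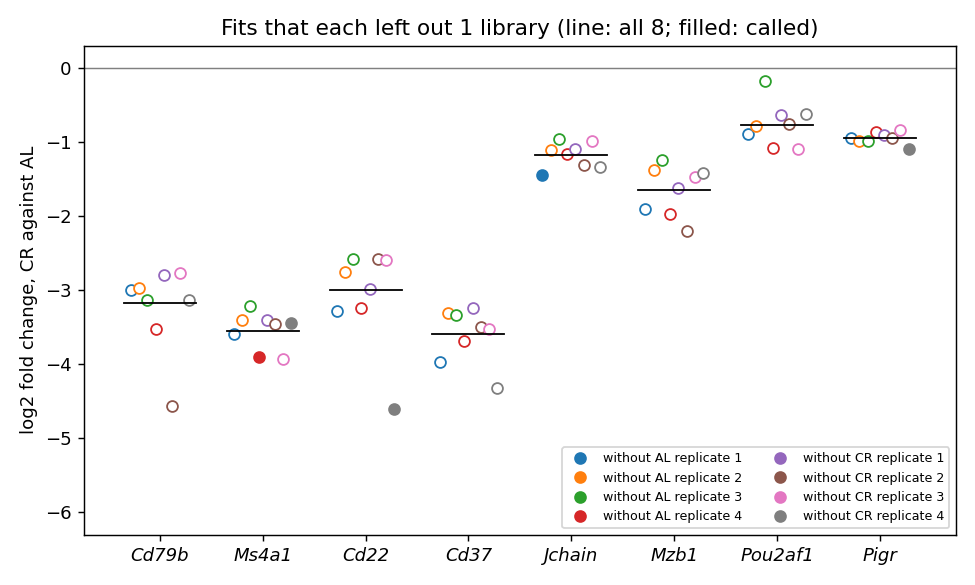
Log2 fold change of CR against AL for the 8 tested members in fits that each left out 1 library (coloured circles, filled where called), with a line for the fit of all 8 libraries. All circles lie below 0, and filled circles are seen for Ms4a1 without AL4 or CR4, for Cd22 and Pigr without CR4 and for Jchain without AL1.

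Mzb1 and Pou2af1 ordered the AL libraries as Ms4a1 did, from AL3 through AL2 and AL1 to AL4, whereas Jchain, Cd22 and Cd37 had AL1 lowest. AL4 had the lowest AL level of Ms4a1 (0.456 CPM) and Cd79b (0.203 CPM) but 19.1 CPM of Jchain, while AL1 had 2.31 CPM of Ms4a1 and the lowest AL level of Jchain, 7.16 CPM. AL3 was highest in Ms4a1, Cd22, Jchain, Mzb1 and Pou2af1. Whether members differed in their change between diets was tested on log2 ratios of pairs of genes (CPM + 0.5) with exact permutation tests, two-sided, over 6 pairs. The ratio of Pigr to Jchain differed by 0.10 between CR and AL (exact p = 0.8286, adjusted 0.994), that of Mzb1 to Jchain by -0.0018 (exact p = 1) and that of Jchain to Ptprc, the pan-leukocyte gene, by 0.37 (exact p = 0.486, adjusted 0.729). The 3 ratios with Cd79a rest on its 2 counts and differed by -0.98 (Jchain to Cd79a), -1.25 (Cd79b to Cd79a) and 1.35 (Cd79a to Ptprc), each with an adjusted exact p of 0.171.

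Ms4a1 was put in the place of Cd79a in 4 further ratios, chosen after the data had been seen. Jchain to Ms4a1 was higher in CR by 0.85 on the log2 scale (2.70 ± 1.21 in AL and 3.55 ± 0.68 in CR; SD, n = 4; exact permutation p = 0.314). Pigr to Ms4a1 differed by 0.94 (exact p = 0.2), Cd79b to Ms4a1 by 0.58 (exact p = 0.143) and Ms4a1 to Ptprc by -0.48 (exact p = 0.343), and all 4 had an adjusted p of 0.343. The pseudocount of 0.5 CPM exceeds the level of Ms4a1 in every CR library and so compresses these ratios. With 0.1 CPM, Jchain to Ms4a1 differed by 1.72 (exact p = 0.0857), Pigr to Ms4a1 by 1.85 (exact p = 0.114), Ms4a1 to Ptprc by -1.32 (exact p = 0.0857) and Cd79b to Ms4a1 by 0.26 (exact p = 0.743). With 1 CPM the same differences were 0.41, 0.46, -0.07 and 0.53. None of the 10 ratios passed after adjustment, at any of these pseudocounts, which does not show that the members changed alike.

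**Figure D3:**
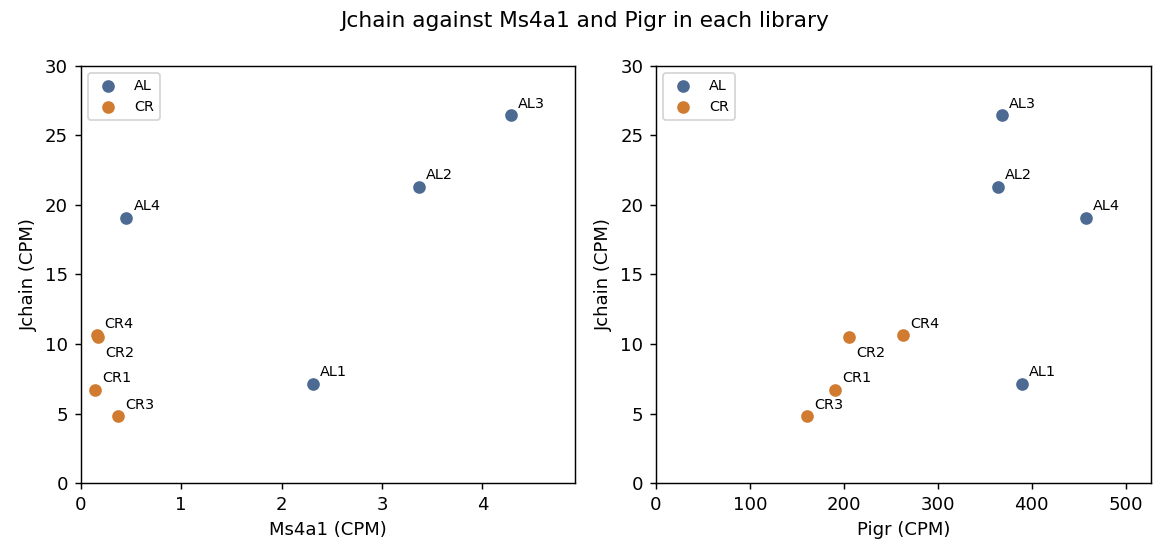
Level of Jchain (CPM) against that of Ms4a1 (left) and of Pigr (right) in each library, on linear axes, with 1 labelled point per library. AL4 pairs 0.456 CPM of Ms4a1 with 19.1 CPM of Jchain, and AL1 pairs 7.16 CPM of Jchain with 389 CPM of Pigr.

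Other genes of B cell identity and receptor signalling had log2 fold changes mostly below 0. Of 25 listed genes 23 were tested, 3 were called lower and 0 higher, 22 had a log2 fold change below 0, and in 8 every CR library lay below every AL library, with a median log2 fold change of -2.05. Over all genes tested, 0.737% were called lower, 49.3% were below 0 and 4.73% lay lower without overlap. DESeq2 called 5 of 20 lower, against 2.45% of all its genes, and edgeR without CR4 called 4, against 1.76%. As with the members, rare genes of this list and of the leukocyte lists can reach 10 counts through AL alone, which favours values below 0. Spib, an ETS factor of B cells, was at 1.54, 0.796, 2.32 and 0.152 CPM in AL1 to AL4 and at 0 in all CR libraries except CR4, with 1 count (adjusted p = 0.0309 by edgeR's quasi-likelihood F test, Benjamini-Hochberg adjusted). Its 68 counts against 1 gave a scaled ratio of 70.5 with a 95% Clopper-Pearson interval of 12.2 to 2826. Plcg2, the phospholipase downstream of the receptor, was at 8.31 ± 1.39 CPM in AL against 3.08 ± 0.72 CPM in CR (log2 fold change -1.43 ± 0.27, adjusted p = 0.0178 in the same edgeR test). Ptpn6, the phosphatase SHP-1 recruited by CD22 and other inhibitory receptors, had 12.2 ± 2.65 and 5.77 ± 1.63 CPM (-1.07 ± 0.25, adjusted p = 0.0449 in the same edgeR test). Plcg2 and Ptpn6 are also expressed by other leukocytes. Pax5, the B cell lineage factor, named after its values were seen, had 3 counts in all.

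The genes of plasma cells and of antibody secretion had fold changes on both sides of 0. All 14 were tested, 0 were called in either direction, 7 were below 0 and 7 above, with a median log2 fold change of -0.09. Lower in CR at an unadjusted p under 0.05 by edgeR were 3 of them, against 7.46% of genes tested. These were Eaf2 (log2 fold change -0.91), Sdc1 (-0.65) and Prdm1 (-0.91), named after their values were seen. The most counted of the 14, Ssr4 (254 ± 41.0 CPM in AL and 258 ± 60.9 in CR) and Sec11c (126 ± 57.4 and 133 ± 65.7), take part in protein entry into the endoplasmic reticulum, which acinar cells use as well. DESeq2 called 0 of 13 genes of this list, and edgeR without CR4 called 1, lower. Of all genes, edgeR called 0.737% lower and 1.23% higher, DESeq2 2.45% lower and edgeR without CR4 1.76% lower. Xbp1, a factor of secretory cells in general that was named after its values were seen, was at 89.3 ± 61.8 and 98.6 ± 67.6 CPM.

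**Figure D4:**
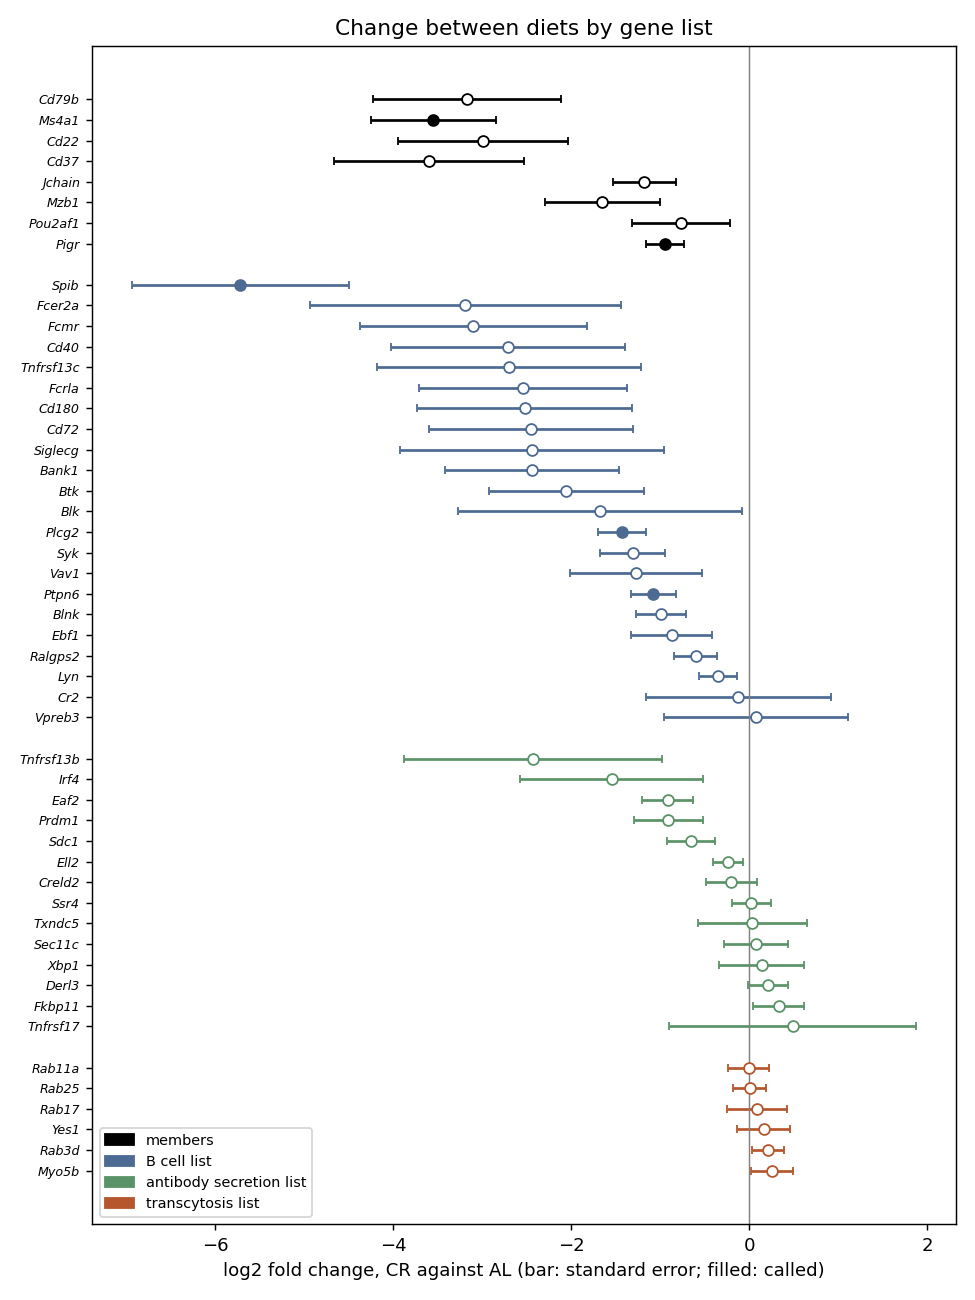
Log2 fold change of CR against AL with its standard error for the 8 tested members and for tested genes of the lists of B cells (22 shown), antibody secretion (14) and transcytosis (6), with filled points for called genes. B cell genes lie mostly left of 0 and include the called Spib, Plcg2 and Ptpn6, and genes of secretion and transcytosis lie on both sides of 0.

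Genes that move vesicles in the transcytotic route of PIGR were not called. Of 7 listed genes 6 were tested, 0 were called by edgeR or DESeq2, 0 had an unadjusted p under 0.05 and the median log2 fold change was 0.13, beside -0.95 for Pigr. Rab3d, a GTPase of secretory vesicles, was at 131 ± 15.3 CPM in AL against 152 ± 12.3 in CR, and Rab11a, a GTPase of recycling endosomes, had 25.6 ± 6.91 and 25.5 ± 4.89. The epithelial list showed 0 calls by edgeR among 9 genes (2 higher in CR at an unadjusted p under 0.05, and 2 called higher by DESeq2) and a median of 0.14. Among all genes tested, 8.41% were higher at that unadjusted p and 1.23% were called higher by edgeR, and DESeq2 called 409 of 13090 higher. Krt18, a keratin of simple epithelia, was at 93.9 ± 15.6 CPM in AL and 149 ± 29.6 in CR, and Cdh1, E-cadherin, at 61.6 ± 8.65 and 70.8 ± 24.6 CPM. The summed level of the 9 epithelial genes, of which Krt18 was the most counted, was 275 to 328 CPM in AL and 330 to 428 CPM in CR. The part of epithelial content in the level of Pigr was not tested.

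Signals that guide and keep B cells in tissue were partly too rare to compare. Of 16 listed genes 9 were tested, 5 were at 0 in every library, 1 was called lower and 0 higher (2 and 1 of 8 by DESeq2). Over all genes edgeR called 0.737% lower and 1.23% higher, and DESeq2 called 2.45% lower and 409 of 13090 higher. The called gene, which reached 10 counts through AL alone, was Glycam1, a mucin-like ligand of L-selectin made by high endothelial venules and some glands, with 0.539, 1.59, 1.96 and 0.557 CPM in AL1 to AL4 and a single count, in CR4, among the CR libraries (adjusted p = 0.0220 by edgeR's quasi-likelihood F test, Benjamini-Hochberg adjusted). The 71 counts against 1 gave a scaled ratio of 73.6 with a 95% Clopper-Pearson interval of 12.8 to 2949. Cxcl13, the chemokine that attracts B cells to follicles, had the opposite sign. It was named after its values were seen, with 1.23, 4.90, 2.54 and 1.87 CPM in AL1 to AL4 and 5.31, 10.7, 5.44 and 8.17 CPM in CR1 to CR4. Every CR library was above every AL library, as in 4.09% of genes tested, and the log2 fold change of 1.48 ± 0.40 did not pass (adjusted p = 0.0762 by edgeR with Benjamini-Hochberg adjustment). Cxcl12, the chemokine that holds plasma cells in their niches, was at 27.0 ± 4.97 CPM in AL against 17.4 ± 1.99 in CR (adjusted p = 0.114 in the same edgeR test), and Ccl28, the mucosal chemokine that draws IgA plasma cells, had 13.7 ± 2.92 and 17.5 ± 3.47 (adjusted p = 0.474). Both were also named after their values were seen.

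Most markers of other leukocytes had a log2 fold change below 0, as the tested B cell members did. Ptprc was at 11.9, 13.8, 39.3 and 10.7 CPM in AL1 to AL4 and at 9.27, 5.39, 5.07 and 4.22 CPM in CR1 to CR4, without overlap (log2 fold change -1.66 ± 0.40, adjusted p = 0.0501 by edgeR's quasi-likelihood F test, Benjamini-Hochberg adjusted, just above the threshold). Of 9 genes of leukocytes in general 0 were called by edgeR (5 lower at an unadjusted p under 0.05, and 2 called lower by DESeq2), 7 were below 0 and 2 above (Lcp1 at 0.08 and Cd48 at 0.45, the latter named after its values were seen), with a median of -0.84, and their sum was 95.8 to 201 CPM in AL and 88.6 to 120 CPM in CR. All 11 T cell genes tested were below 0, as were 49.3% of all genes, 3 of them (Cd3d, Cd8b1 and Cd5, named after their values were seen) had fewer than 10 counts in CR, 0 were called by edgeR (2 lower at an unadjusted p under 0.05, and 1 called lower by DESeq2), the median was -1.71, and their sum was 4.08 to 19.5 CPM in AL and 2.89 to 4.26 CPM in CR. Of 11 macrophage genes 10 were below 0 and 0 were called by edgeR or DESeq2 (6 lower at an unadjusted p under 0.05), with a median of -0.74 and sums of 103 to 277 and 65.8 to 125 CPM. Beside these counts for the 3 leukocyte lists, 49.3% of all genes tested were below 0 and 7.46% were lower at an unadjusted p under 0.05. Calls of lower genes made up 0.737% by edgeR and 2.45% by DESeq2.

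Genes of MHC class II, which B cells share with macrophages and dendritic cells, held 3 of the calls. Of 10 tested, all were below 0, the median was -1.73, and H2-Aa (-1.64 ± 0.30), H2-Ab1 (-1.66 ± 0.36) and H2-Eb1 (-2.07 ± 0.42) were called lower by edgeR's quasi-likelihood test, while DESeq2 called 7 of 9. Over all genes 49.3% were below 0, edgeR called 0.737% lower and DESeq2 2.45%, and the rarer H2-Eb2, H2-Ob and H2-Oa, named after their values were seen, reached 10 counts through AL alone. AL3, the library with the highest Ms4a1 and Jchain, also had the highest class II sum, 722 CPM, against 200 to 313 CPM in the other AL libraries and 91.2 to 157 CPM in CR. Thy1 (2.17 ± 0.88 and 1.17 ± 0.06 CPM) and Lck (1.45 ± 1.76 and 0.267 ± 0.186 CPM) were the most counted T cell genes, C1qa (45.4 ± 32.3 and 23.3 ± 7.81 CPM) and C1qc (28.8 ± 6.06 and 18.2 ± 3.81 CPM) the most counted macrophage genes, and Lcp1 (57.1 ± 9.50 and 60.4 ± 13.8 CPM) and Laptm5 (35.1 ± 18.4 and 20.1 ± 5.80 CPM) the most counted general leukocyte genes. The part of these other cells in the levels of the members was not tested.

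Over the 8 libraries, the genes whose log2 levels followed those of Jchain most closely among 11367 compared were Ripk2 (r = 0.97), Lyn (r = 0.97) and Rnh1 (r = 0.96). None of the 3 was called between diets. For Pigr they were Phlda2 (r = 0.99), Esp3 (r = 0.99) and Cltc (r = 0.98), of which Phlda2 (log2 fold change -1.40) and Esp3 (-3.04) were themselves called lower by edgeR. For Cd79a they were Cdkal1 (r = 0.94), Aadac (r = 0.88) and Ugt8a (r = 0.88), but this order rests on 2 counts in AL2. These correlations describe 8 libraries that share the diets, depths and parotid levels given above, and they were picked as the highest of all genes.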

How the data were processed

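Exorbital LG RNA of 4 AL and 4 CR samples was sequenced with a kit for 3' ends in single reads of 75 bases. The authors trimmed with cutadapt, aligned with STAR to mm10 and used HTSeq to count reads per gene, and raw counts were deposited. The log2 values deposited by the authors are counts divided by DESeq2's RLE size factor, plus 1, and recomputing them gave a largest difference of 0, so they were not used further. Versions and the annotation release are not given in the sources used here.

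Of 24557 rows, 5 repeated symbols were dropped. Groups followed the diet named in each label. Genes with at least 10 counts in all (14510) were tested in edgeR 4.0.16 (R 4.3.3) by its quasi-likelihood F test after RLE scaling. P-values were adjusted over all of them by Benjamini-Hochberg, and standard errors were taken as log2 fold change over the root of F. A call needed a fold change reaching 1.5 with an adjusted p under 0.05. The biological coefficient of variation was 40.2%. The pipeline was tested on simulated data. Ratios of genes used CPM + 0.5 and exact permutation tests over libraries, whose smallest p is 0.0286. Motifs were searched in RefSeq promoters of GRCm38.p6.

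The members and the 11 gene lists were chosen with earlier results of these data known. Named are all members, called genes of a list or else its 2 most counted, Ptprc, the 3 genes most like Cd79a, Jchain and Pigr, those below 0 in the lacrimal list, named after their values were seen, and others said to be so. Sox10 (log2 fold change 2.14) in the lacrimal list and Prb1, Prh1 and Prp2 (5.89, 9.72 and 9.85) in the parotid list were called higher in CR by edgeR. As alternatives, DESeq2 1.42.0, TMM and upper-quartile factors, robust dispersion, other filters on low counts, no fold threshold, a replicate block, the parotid score as a covariate, removal of the 50 most counted genes, and omission of each library were tried. Ratios with Ms4a1, their other pseudocounts, and calls per list with DESeq2, without CR4 or with the covariate, were added after seeing the data. 1 tested gene of the B cell list enters its counts and median but is itself not reported here, in the text or the plot.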

Additional observations from a re-analysis of the deposited data

Results flagged for a closer look

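In 10 of 68 groups of 4 libraries examined, the highest library stood far from the other 3 of its diet by Dixon's gap ratio, where chance gives about 1 in 20 for normally distributed values. CPM need not be so distributed, and the groups share the same libraries, so the count of 10 cannot be judged by that rate. The rate also does not hold for Cd79a, Spib and Glycam1 below, where 3 libraries at 0 fix the ratio at 1. Among the members the genes flagged were Cd79a, with 0.122 CPM in AL2 and 0 in the other AL libraries, and Ms4a1, with 0.371 CPM in CR3. In CR4, Spib and Glycam1 each had 0.0556 CPM, which is a single count, against 0 in CR1 to CR3. AL3 stood out in Ptpn6 with 16.1 CPM, in Ptprc with 39.3 CPM and in H2-Eb1 with 185.7 CPM, and CR3 in H2-Eb1 with 31.0 CPM. Prp2, a parotid transcript, stood out with 1.23 CPM in AL1 and 921.6 CPM in CR2.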

How the results depend on the processing

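All 8 tested members kept a log2 fold change below 0 under every alternative that gave a value, and Mzb1 and Pou2af1 were never called. DESeq2 called 409 genes higher and 321 lower, and among the members it added Cd79b (-3.25), Cd22 (-3.04), Cd37 (-3.73) and Jchain (-1.18), with adjusted p of 0.0381, 0.0306, 0.0230 and 0.0379. Without a filter on low counts 271 genes were higher and 165 lower. With the parotid level as covariate 3 and 0 genes were called (Ms4a1 -5.13 and Pigr -0.63, neither called), Cd79b moved to -6.83, Mzb1 to -4.34, Pou2af1 to -1.76, Cd22 to -1.41, Cd37 to -1.82 and Jchain to -0.82, no listed gene was called in that fit, and the cause was not tested. Leaving out each library gave 44 to 456 genes higher and 27 to 252 lower, the lowest without CR2 and the highest without CR4, and counts of lower genes of 47, 35, 42, 61 and 38 without AL1, AL2, AL3, CR1 and CR3. The log2 fold change then ranged from -3.93 to -3.21 for Ms4a1, from -4.57 to -2.77 for Cd79b, from -4.32 to -3.25 for Cd37, from -2.21 to -1.24 for Mzb1, from -1.09 to -0.17 for Pou2af1, from -4.60 to -2.57 for Cd22, from -1.44 to -0.96 for Jchain and from -1.09 to -0.84 for Pigr. The ratio of Mzb1 to Jchain turned from -0.0018 to 0.17 with a pseudocount of 1 CPM, and that of Cd79b to Cd79a from -1.25 to -2.26 with 0.1 CPM and -0.85 with 1 CPM. Leaving out 1 library moved Pigr to Jchain between -0.15 (without AL3) and 0.48 (without AL1), Mzb1 to Jchain between -0.41 (without AL4) and 0.30 (without CR4), and Jchain to Ptprc between 0.09 (without CR4) and 0.65 (without CR1). filterByExpr left out Ms4a1, Cd79a, Cd79b and Cd37, and 10 counts in every library left only Jchain, Pou2af1 and Pigr, so these filters gave no value for the others. Cd79a lies at or under the floor in every library, and the cause was not tested.

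The shared replicate numbers were not taken to pair the libraries, since not every correlation was over 0.1. The correlation of same-numbered deviations was 0.181, 0.0995, 0.275 and 0.504 for numbers 1 to 4. AL1, AL2 and AL4 correlated best with their own number, a hint from the data and not from the design, and AL3 with CR1. With a replicate block 556 genes were higher and 450 lower, and Jchain was called (-1.10, adjusted p = 0.0118 by edgeR), with no other change of call among the members. Jchain to Ptprc was higher in CR within all 4 same-numbered pairs (0.37, exact p = 0.125 by sign flips, the smallest that 4 pairs allow).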

Other observations

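Ccr10, the receptor for CCL28 on IgA-secreting plasma cells, had 0 counts in the 4 AL libraries and 14 in the CR libraries together (0.222 ± 0.149 CPM; SD, n = 4), and it was not called (adjusted p = 0.228 by edgeR's quasi-likelihood F test, Benjamini-Hochberg adjusted). Ccr10 reached 10 counts through CR alone, with 4, 5, 5 and 0 counts in CR1 to CR4, near the floor of 3 counts. Tnfrsf17, the plasma cell receptor BCMA, had 11 counts in AL, 10 of them in AL3, and 18 in CR, 10 of them in CR4. Sdc1, the surface marker CD138 that epithelium also carries, was at 5.10 ± 0.84 CPM in AL against 3.23 ± 0.28 CPM in CR, without overlap and not called (adjusted p = 0.252 in the same edgeR test). Prdm1 (log2 fold change -0.91), Eaf2 (-0.91), Irf4 (-1.54) and Tnfrsf13b (-2.43) of the antibody secretion list were also below 0 and not called. In that list, 7 of 14 genes were below 0 and 7 above. These genes were named after their values were seen.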
